A study of Homo sapiens with 6 samples.

Results

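The proteasome genes of HCT116 cells, an established human colon cancer cell line, were measured on 6 arrays: 3 of cells with a lentiviral hairpin directed at NFX1-91, and 3 of cells with a hairpin directed at β-galactosidase as the control. NFX1-91 is a form of the zinc finger protein NFX1, known as a repressor of transcription. Members were chosen by name: gene symbols made of PSMA, PSMB, PSMC, PSMD, PSME, PSMF or PSMG and a number, read by a probe set annotated to that gene alone. This gave 41 of the 11963 genes tested, and 39 of the 41 are proteasome subunits, activators, inhibitors or assembly factors. The other two, PSMC3IP and PSME3IP1, are named after subunits that their proteins bind and are described apart. Both groups carried a hairpin stably expressed from the vector FUGW and grew in serum-containing medium. The labels do not say whether a group was a clone or a pool, or whether separate cultures gave its arrays, and the p-values rest on a spread that could be technical only.

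The proteasome is the protease that degrades ubiquitin-tagged proteins. Its 20S core is a barrel of PSMA rings around PSMB rings, in which PSMB5, PSMB6 and PSMB7 carry the cutting sites. The 19S cap, built from PSMC ATPases and PSMD subunits, binds, unfolds and feeds in the substrate. In immune cells and after interferon, PSMB8, PSMB9 and PSMB10 replace the constitutive catalytic subunits to form the immunoproteasome, and PSME proteins form other activators that dock on the core.

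Array signals were scaled to a mean of 500 per array. Arrays of a group correlated at 0.992 to 0.995 on the log2 scale, and arrays of different groups at 0.983 to 0.985. NFX1, the hairpin's target, was read by 3 probe sets, with log2 changes of -0.13 (adjusted p over probe sets 0.400), -0.06 (0.775) and, for the dimmest, -0.60 (0.0137). The dimmest read 16.8 to 24.4 in control and 4.56 to 8.87 in NFX1-91 shRNA arrays. On each array 24.1% to 25.9% of probe sets lay below a signal of 16. An exact permutation test of the dimmest gave p = 0.1, the smallest possible for 3 against 3 arrays. Which of the 3 probe sets read the NFX1-91 form was not tested. Markers of colon epithelium had summed signals of 23900 to 24700 in control and 28500 to 28700 in NFX1-91 shRNA arrays, with 2 of 7 higher and 2 lower. The keratins KRT18 and KRT8 were higher (log2 changes 0.54 and 0.35), while CDH1 and EPCAM were lower (-0.50 and -0.15). The 5 measured leukocyte markers summed to 45.6 to 69.3 and 50.3 to 78.7, and 3 of them lay below a signal of 16 on every array. Of 5 fibroblast and 3 endothelial markers 0 passed by limma, also at an unadjusted p under 0.05. In bulk RNA a change in the share of cells and a change in RNA per cell cannot be told apart.

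Promoter sequence is shown for 3 genes: PSMC1 and PSMC3, ATPases of the same ring that went opposite ways, and PSMB10, an inducible catalytic subunit that did not pass. Each stretch is the 250 bases before the RefSeq transcript start on GRCh38.p14, 5′ to 3′ on the gene's strand. Capitals mark the letters of a searched motif.
PSMC1, chr14:90256303-90256552, plus strand: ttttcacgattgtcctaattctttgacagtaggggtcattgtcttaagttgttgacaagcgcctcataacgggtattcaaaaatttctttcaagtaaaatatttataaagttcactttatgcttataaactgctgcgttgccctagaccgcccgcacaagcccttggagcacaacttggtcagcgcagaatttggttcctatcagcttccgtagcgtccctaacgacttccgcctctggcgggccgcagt
PSMC3, chr11:47426440-47426689, minus strand: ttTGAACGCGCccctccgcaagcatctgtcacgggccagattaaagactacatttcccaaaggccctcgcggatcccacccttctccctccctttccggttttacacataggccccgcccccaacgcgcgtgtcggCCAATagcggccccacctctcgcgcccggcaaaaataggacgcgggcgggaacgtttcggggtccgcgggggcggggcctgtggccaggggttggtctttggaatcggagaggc
PSMB10, chr16:67936851-67937100, minus strand: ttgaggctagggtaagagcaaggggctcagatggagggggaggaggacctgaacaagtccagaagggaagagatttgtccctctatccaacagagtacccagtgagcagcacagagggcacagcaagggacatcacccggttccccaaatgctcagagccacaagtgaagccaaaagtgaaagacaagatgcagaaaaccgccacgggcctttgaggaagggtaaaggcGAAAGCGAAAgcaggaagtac
No searched motif lay in the PSMC1 stretch. The PSMC3 stretch held TGANNNNGC, a loose spelling of the site bound by NFE2L1 and NFE2L2, factors known to drive proteasome genes under stress, and a CCAAT box. The PSMB10 stretch held the core of the interferon-stimulated response element (GAAA, 2 bases of any kind, GAAA), which began 21 bases before the start.

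Most core and cap transcripts that differed were higher in NFX1-91 shRNA arrays, by small amounts. By limma with Benjamini-Hochberg adjustment over all genes, 18 of the 39 proteasome genes rose (46.2%), 3 fell (7.69%) and 18 did not pass at 0.05. Over all 11963 genes 32.5% were called, 14.7% higher and 17.8% lower. The proteasome genes are bright, and among the 5982 genes at or above the median brightness 23.7% were higher and 29.1% lower. The median log2 change was 0.12 over the 39 genes, against 0.00 over all genes. For 24 of the 39 the signals of the groups did not overlap. The same held for 43.5% of all genes and for 3806 of the 5982 genes at or above the median brightness. Only PSME4 passed with a change of at least 1.5-fold, a size reached by 8.81% of all genes. Whether the proteasome genes differ as a set from other genes was not tested.

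**Figure D1:**
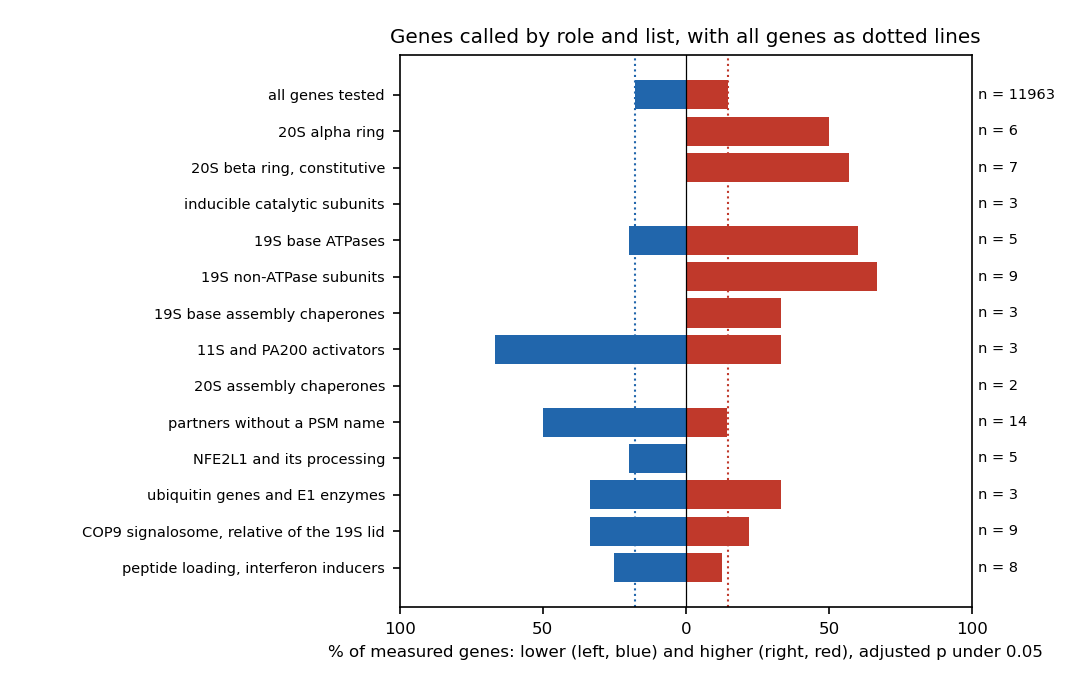
Percent of the measured genes of each role or list that passed limma at an adjusted p under 0.05, lower to the left and higher to the right, with the number measured at the right edge. Dotted lines give all genes tested (14.7% higher, 17.8% lower); the constitutive core and the 19S non-ATPase subunits have no bar to the left, and 2 of the 3 measured activators fell.

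By role, 7 of 13 measured constitutive core genes rose and 0 fell (also 0 at an unadjusted p under 0.05), with a median log2 change of 0.12. Of 14 structural cap genes 9 rose and 1 fell, with a median of 0.16. Of the 3 inducible catalytic subunits 0 passed, 1 was lower at an unadjusted p under 0.05, and the median was -0.20. The core and cap medians are thus positive and that of the inducible subunits negative. The inducible median is the value of PSMB10, which did not pass, and PSMB8 had no measured change. The difference between the core, cap and inducible groups was not tested. The calls depended on the spread model: without limma's variance trend 10 proteasome genes rose and 1 fell. Over all genes 1760 rose and 2130 fell with the trend, and 1471 and 1877 without it. The rises of PSMA1, PSMA2, PSMA7, PSMB1, PSMC6, PSMD2, PSMD11 and PSMD14 (adjusted p from 0.0989 to 0.179) and the falls of PSME1 and PSME3 were lost there. Leaving out control array 2 gave 12 rises and 1 fall, with 1341 rises and 1736 falls over all genes. The 8 genes that kept call and direction in all 18 settings without a stricter threshold were PSMB2, PSMB6, PSMB7, PSMC1, PSMD6, PSMD8 and PSME4 (higher) and PSMC3 (lower). Of these, PSMB6, PSMB7, PSMC1, PSMC3, PSMD6 and PSMD8 have only 1 probe set, so changing the probe set could not alter their log2 change. PSMC2, PSMD5 and PSMD12 have several, and lost their call only in settings that changed the probe set.

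Around each gene's mean, the 39 proteasome genes had a median log2 deviation of -0.01 on control array 1, -0.06 and -0.07 on control arrays 2 and 3, and 0.06, 0.04 and 0.05 on the NFX1-91 shRNA arrays. Control array 1 was thus the nearest of the controls to the other group. Without it 22 genes rose, and PSMA4, PSMB4, PSMD1 and PSMD3 were the additional calls (adjusted p = 0.0205, 0.0113, 0.0147 and 0.0163). Over all genes 1846 rose without control array 1, against 1760 with all arrays. Small rises were lost when other arrays were left out. PSMA1 was above 0.05 without NFX1-91 shRNA array 3 (adjusted p = 0.0566). PSMA2, PSMA7 and PSMC6 were above it without control arrays 2 or 3 or NFX1-91 shRNA arrays 1 or 3, with adjusted p from 0.0545 to 0.0789, 0.0621 to 0.0825 and 0.0599 to 0.0833. PSMB1 was above it without any array except control array 1 (0.0587 to 0.110), and PSMD11 without control arrays 2 or 3 or NFX1-91 shRNA arrays 1 or 2 (0.113 to 0.159).

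**Figure D2:**
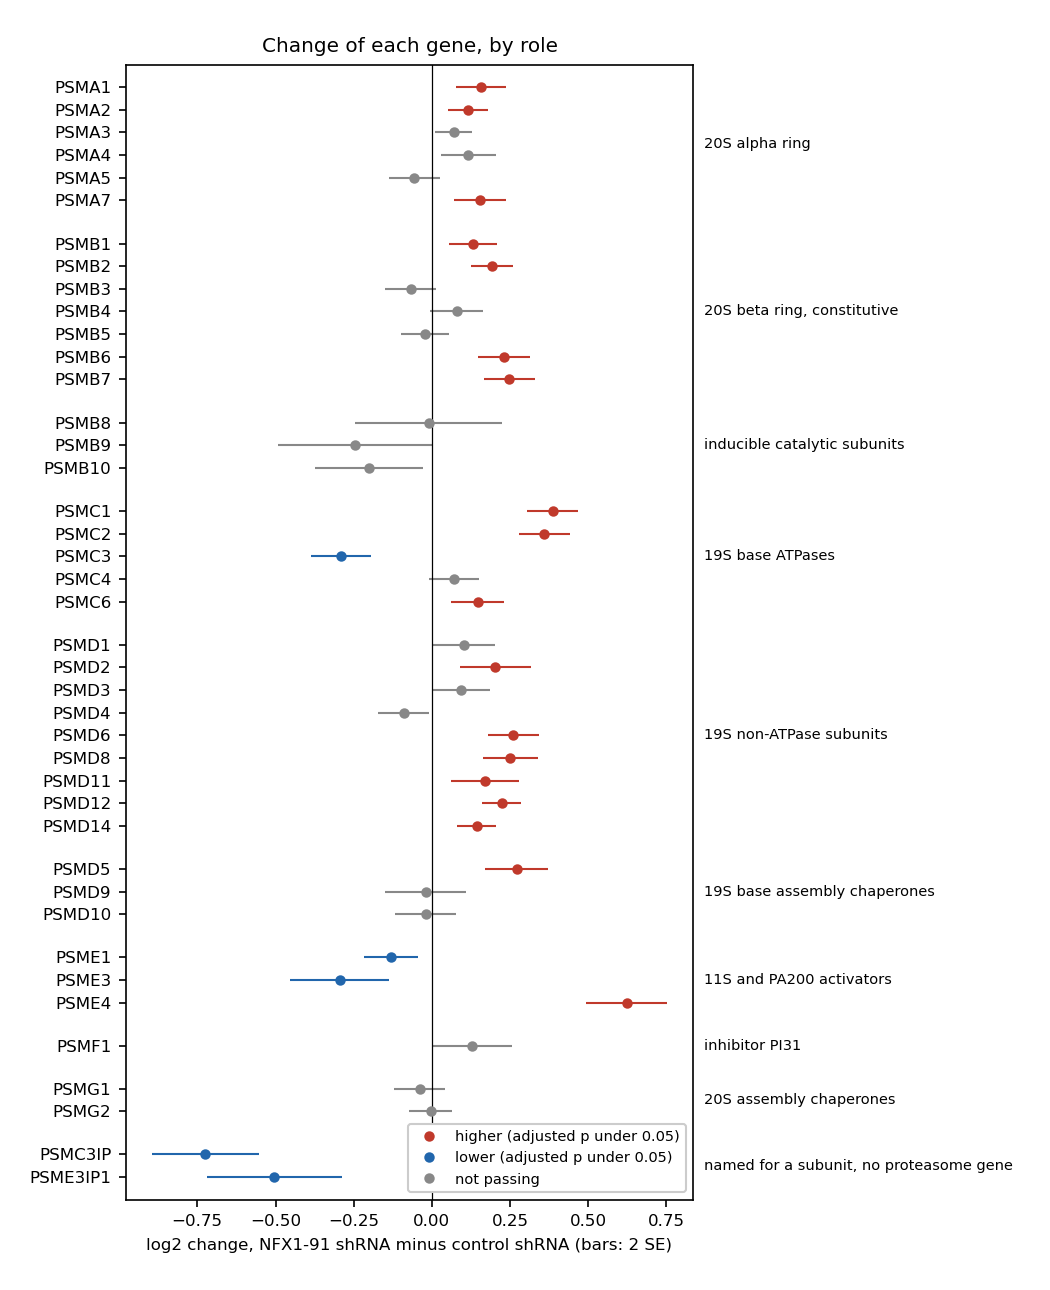
Log2 change of each of the 41 genes, NFX1-91 shRNA minus control shRNA, grouped by role; points are limma estimates and bars are 2 SE. Changes of proteasome genes run from -0.29 (PSME3) to 0.62 (PSME4), and PSMC3 stands on the other side of 0 from PSMC1, PSMC2 and PSMC6.

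The alpha ring forms the gated entrance of the core. Of its 6 measured genes 3 rose: PSMA1 by 0.16 on the log2 scale (SE 0.0401, adjusted p = 0.0136), PSMA7 by 0.15 (SE 0.0421, adjusted p = 0.0182) and PSMA2 by 0.12 (SE 0.0316, adjusted p = 0.0184). PSMA1 went from 4971, 4832 and 4499 in control arrays to 5313, 5224 and 5389 in NFX1-91 shRNA arrays. The groups did not overlap, but the rise is 1.11-fold. PSMA3 (0.07), PSMA4 (0.12) and PSMA5 (-0.06) did not pass. The PSMA2 rise rests on its brightest probe set, since the other gave -0.06 (adjusted p over probe sets 0.522).

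Among the constitutive beta ring genes, 2 of the 3 constitutive catalytic subunits rose and the third did not pass. PSMB7, the trypsin-like site, read 3258, 3144 and 2949 in control arrays and 3724, 3714 and 3666 with the NFX1-91 hairpin, a log2 change of 0.25 (SE 0.0410, adjusted p = 0.00116). PSMB6, the caspase-like site, read 3523, 3321 and 3168 against 3909, 3881 and 3945, a change of 0.23 (SE 0.0416, adjusted p = 0.00202). Every NFX1-91 shRNA array lay above every control array for both genes. PSMB5, the chymotrypsin-like site and the main target of bortezomib, read 3133, 3048 and 2915 against 2929, 3034 and 2990, and these groups overlapped (log2 change -0.02, SE 0.0381, adjusted p = 0.722). The span of 2 SE either side of the PSMB5 change ran from -0.10 to 0.05. Within each array, the log2 ratio of PSMB7 to PSMB5 shifted by 0.27, with SDs of 0.0204 in control and 0.0305 in NFX1-91 shRNA arrays. The ratio of PSMB6 to PSMB5 shifted by 0.25 (SDs 0.0274 and 0.0312). These pairs were chosen after their values were seen and were not tested.

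The beta subunits without a cutting site were mixed. PSMB2 rose by 0.19 (SE 0.0335, adjusted p = 0.00164) and PSMB1 by 0.13 (adjusted p = 0.0263). PSMB4 had a log2 change of 0.08 and PSMB3 one of -0.07, and neither passed. A second bright probe set of PSMB1 rose alike, by 0.13 (adjusted p over probe sets 0.0191). With shared probe sets left out, PSMB1 had a change of -0.16 (adjusted p = 0.484), from a dim probe set at 13.5 to 25.2.

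The inducible subunits were dim or did not pass. PSMB10, which takes the place of PSMB7, read 400.6, 348.5 and 338.4 in control arrays and 287.4, 314.3 and 337.8 in NFX1-91 shRNA arrays. The groups only just failed to overlap, and the log2 change was -0.20 (SE 0.0866, adjusted p = 0.111). PSMB9, which takes the place of PSMB6, read 83.1, 67.2 and 82.0 against 56.2, 63.3 and 68.7, with overlapping groups (log2 change -0.25, SE 0.123, adjusted p = 0.168). PSMB8, the counterpart of PSMB5, read 0.778 to 1.17 in control arrays and 0.778 to 0.797 with the NFX1-91 hairpin. In 5 of the 6 arrays that is a low value that 397 to 451 probe sets of an array share, so PSMB8 has no measured change here. No rise of an inducible subunit was called, and 2 SE either side span -0.37 to -0.03 for PSMB10 and -0.49 to 0.00 for PSMB9.

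**Figure D3:**
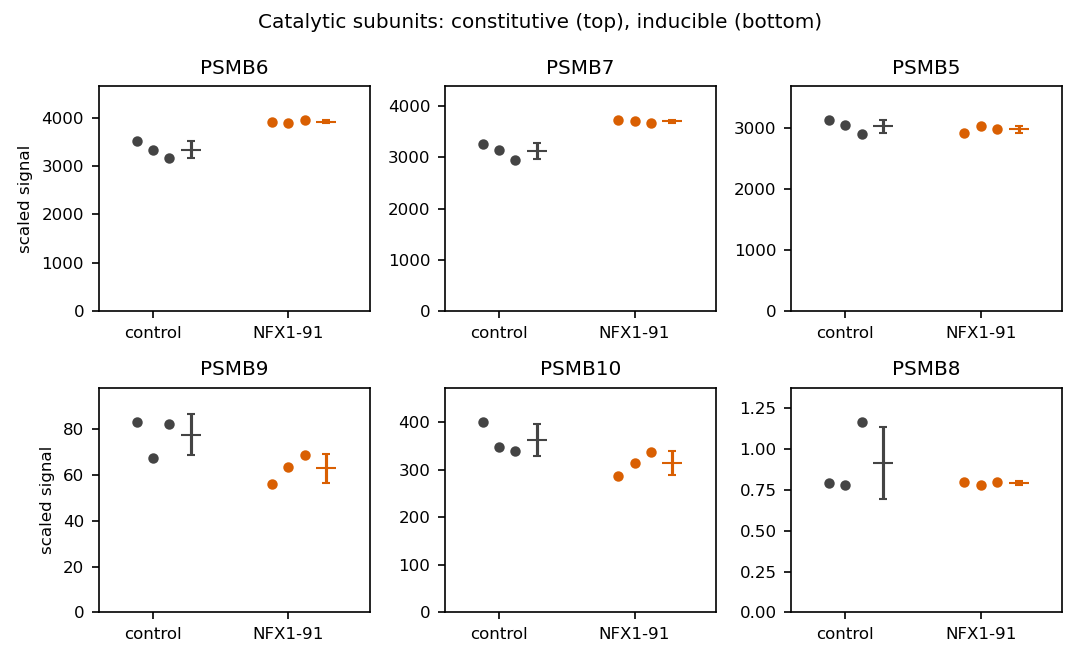
Scaled signal per array (y axis from 0, a separate scale for each gene) of the constitutive catalytic subunits PSMB6, PSMB7 and PSMB5 and of the inducible PSMB9, PSMB10 and PSMB8; points are arrays, and bars are mean ± SD, n = 3 per group. PSMB6 and PSMB7 lie higher in every NFX1-91 shRNA array, PSMB5 overlaps, and PSMB8 stays at about 1 or below.

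The 6 ATPases of the cap form a ring that unfolds substrates, and 5 were measured. By the brightest probe set annotated to a gene alone, the largest rises among core and cap subunits were in this ring. PSMC1 read 2524, 2336 and 2341 in control arrays and 3199, 3099 and 3127 with the NFX1-91 hairpin, a 1.31-fold rise (log2 change 0.39, SE 0.0407, adjusted p = 6.88e-05). PSMC2 read 3830, 3719 and 3723 against 5109, 4708 and 4663, a 1.28-fold rise (log2 change 0.36, SE 0.0405, adjusted p = 0.000105). For each gene the groups were far apart compared with their spread. PSMC3 went the other way, from 1611, 1673 and 1660 to 1365, 1401 and 1267 (log2 change -0.29, SE 0.0479, adjusted p = 0.00111). PSMC6 rose by 0.15 (adjusted p = 0.0245), and PSMC4 had a change of 0.07 that did not pass. Leaving out shared probe sets took PSMC2 above the threshold (0.20, adjusted p = 0.0567). PSMC1 and PSMC3 are each read by a shared probe set only, so another kind of probe set could not be tried for them.

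Of 9 measured non-ATPase subunits of the cap 6 rose and 0 fell, also 0 at an unadjusted p under 0.05. PSMD6, a lid subunit, read 3011, 2960 and 2826 in control arrays and 3534, 3637 and 3374 in NFX1-91 shRNA arrays (log2 change 0.26, SE 0.0409, adjusted p = 0.000863). PSMD8, another lid subunit, read 2366, 2281 and 2202 against 2593, 2804 and 2760 (0.25, SE 0.0440, adjusted p = 0.00166). Neither gene's groups overlapped. The lid scaffold subunit PSMD12 rose by 0.22 (adjusted p = 0.000378), but its other probe set, at signals of 1208 to 1365, had a change of -0.02 (adjusted p over probe sets 0.879), and the mean of both gave 0.10 (adjusted p = 0.0676). PSMD11 rose by 0.17 (adjusted p = 0.0357) and PSMD14, the lid's deubiquitinase, by 0.14 (adjusted p = 0.00605). PSMD2, a large scaffold of the base, rose by 0.20 (adjusted p = 0.0200). PSMD2 was above 0.05 without control array 2 (adjusted p = 0.0768), control array 3 (0.0697), NFX1-91 shRNA array 2 (0.0899) or array 3 (0.0645). Its base partner PSMD1 had a change of 0.10 and the lid subunit PSMD3 one of 0.09, neither of which passed. The ubiquitin receptor PSMD4 had a change of -0.09 (limma unadjusted p = 0.0506, adjusted p = 0.124). Its next brightest probe sets had changes of -0.15 and -0.16 (limma adjusted p over probe sets 0.0221 and 0.0587).

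Of 5 measured chaperones that assemble the base or the core, PSMD5 rose. It read 766.5, 836.4 and 831.8 in control arrays and 979.6, 987.2 and 979.8 in NFX1-91 shRNA arrays, and these did not overlap (log2 change 0.27, SE 0.0505, adjusted p = 0.00233). Averaged with a dim probe set at signals of 2.27 to 10.6, the change was 0.14 (adjusted p = 0.320). PSMD9 and PSMD10, the latter known as gankyrin, each had a log2 change of -0.02. For the core chaperones PSMG1 and PSMG2 the changes were -0.04 and 0.00. Of these last 4 genes 0 passed, also at an unadjusted p under 0.05. For PSMG2, 2 SE either side spanned -0.07 to 0.07.

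The activators that compete with the 19S cap for the core split in direction. PSME4 encodes PA200, a nuclear activator that does not depend on ubiquitin. It read 697.9, 614.8 and 625.5 in control arrays and 938.7, 1025 and 1044 with the NFX1-91 hairpin, a 1.54-fold rise (log2 change 0.62, SE 0.0650, adjusted p = 6.50e-05). It was the largest change of the 39 genes, and the lowest NFX1-91 shRNA array lay well above the highest control array. PSME3, which forms the nuclear 11S activator PA28γ, fell from 1506, 1622 and 1518 to 1351, 1355 and 1090 (log2 change -0.29, SE 0.0796, adjusted p = 0.0171). NFX1-91 shRNA array 3 was the lowest of these. PSME1, a subunit of the interferon-inducible 11S activator, fell from 1799, 1729 and 1776 to 1646, 1544 and 1653 (log2 change -0.13, SE 0.0430, adjusted p = 0.0427). The PSME3 call was lost without control array 2 (adjusted p = 0.0748), without the variance trend (adjusted p = 0.0748) and with the mean of its probe sets (-0.13, adjusted p = 0.0597). PSME1 was just past the threshold: without any of 5 arrays (each one except NFX1-91 shRNA array 3) it was above 0.05, and it had an adjusted p = 0.170 with arrays centred on their median. The log2 ratio of PSME4 to PSME3 within an array shifted by 0.92 (SDs 0.143 and 0.237), a pair chosen after its values were seen.

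**Figure D4:**
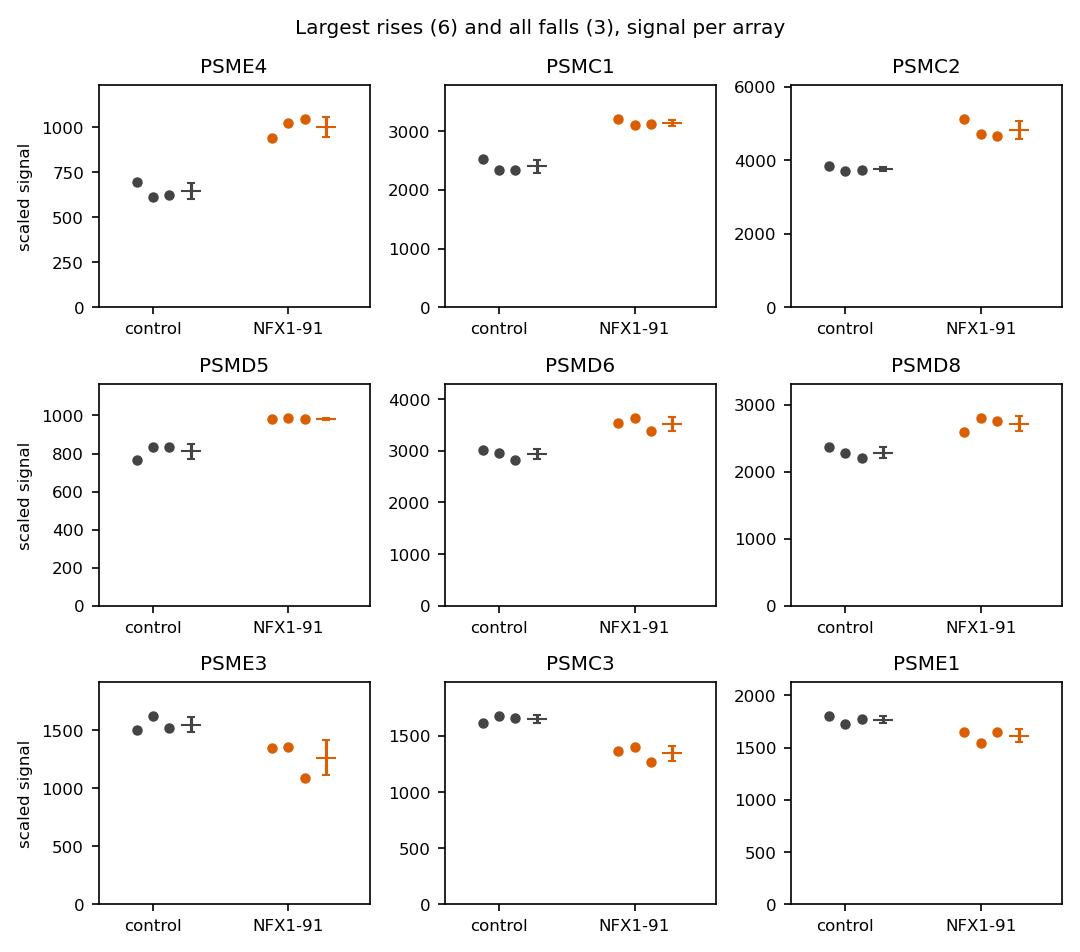
Scaled signal per array (y axis from 0, a separate scale for each gene) of the 6 proteasome genes with the largest rises and the 3 that fell; points are arrays, and bars are mean ± SD, n = 3 per group. The groups of arrays do not overlap in any of the 9 panels, and PSME4 shows the largest fold change, from a mean of 646 to 1003.

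PSMF1 encodes PI31, named as an inhibitor of the isolated core and known as a transport adaptor of proteasomes. Its brighter probe set read 891.5, 980.7 and 1014 in control arrays and 983.9, 1061 and 1112 in NFX1-91 shRNA arrays, with overlapping groups (log2 change 0.13, SE 0.0638, adjusted p = 0.168). Its other probe set went from 441 ± 19.1 to 616 ± 16.1 (SD, n = 3 per group), a log2 change of 0.47 (adjusted p over probe sets 0.000494). The call for this gene thus depends on the probe set.

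Such disagreement was found elsewhere. Of the 39 genes 16 had several probe sets, and in the fit over all probe sets 10 of these were called by the brightest. For 5 of the 10 another probe set was called the same way, and for 0 the opposite way. For 4 others, PSMF1, PSMD4, PSMD9 and PSMD11, the brightest did not pass in that fit and another did. When probe sets were averaged per gene, PSMA2, PSMA7, PSMB1, PSMD5, PSMD12 and PSME3 were no longer called, with changes of 0.03, 0.11, 0.03, 0.14, 0.10 and -0.13, and PSMF1 was called (0.30, adjusted p = 0.00110). A second PSMD4 probe set fell by 0.15 (adjusted p over probe sets 0.0221). A dim PSMD9 probe set rose by 0.46 (0.0304). A dim PSMD11 probe set rose by 0.68 (0.000575), against 0.17 (0.0538) for the bright one. PSME3 had a second probe set that fell alike (-0.30, 0.0276) and further ones at 0.12 and -0.04, neither called. For PSME4 a second probe set rose by 0.66 (0.0346) and the dimmest had a change of 0.26 (0.0849).

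**Figure D5:**
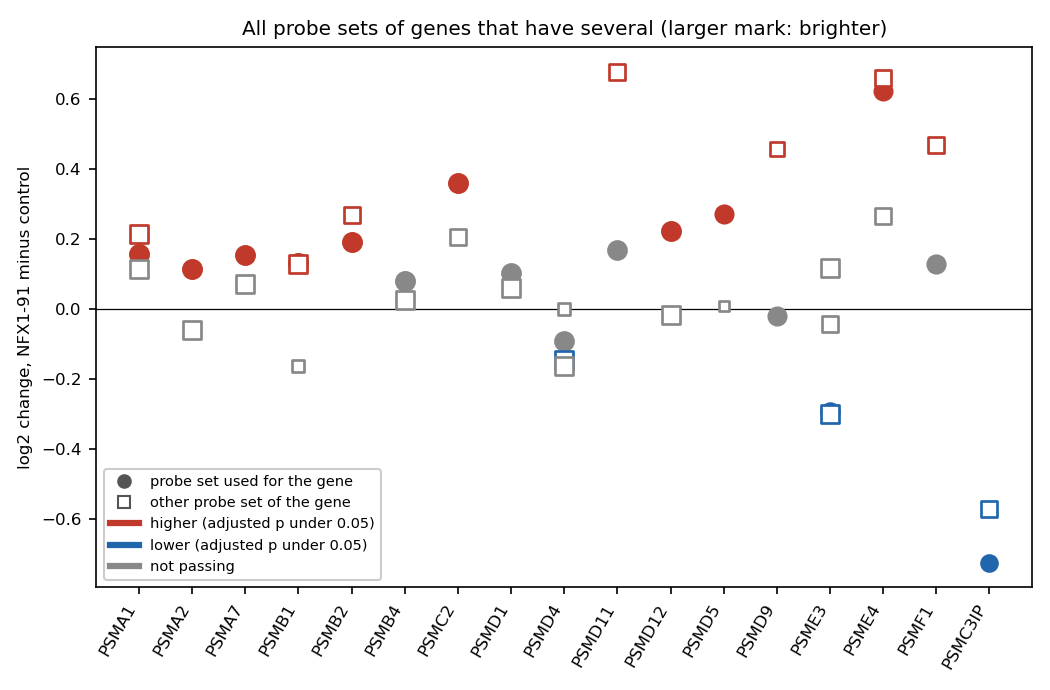
Log2 change, NFX1-91 shRNA minus control shRNA, of every probe set of the 17 genes that have several; filled circles are the probe sets used and open squares the others, larger where brighter, coloured by the call over all probe sets. PSMF1, PSMD9 and PSMD11 have an open red square above their circle, and the PSME3 marks spread from -0.30 to 0.12.

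The members that only carry a subunit's name both fell. PSMC3IP, a cofactor of recombination known from meiosis, read 344.7, 344.7 and 321.1 in control arrays and 181.5, 192.2 and 220.3 in NFX1-91 shRNA arrays (log2 change -0.72, SE 0.0855, adjusted p = 0.000140). Its second probe set fell by 0.57. PSME3IP1, which binds PSME3, read 143.0, 152.2 and 141.5 against 103.6, 84.1 and 107.5 (-0.50, SE 0.108, adjusted p = 0.00540).

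Of 14 measured partners of the proteasome without a PSM name, 7 fell (50%) and 2 rose (14.3%), with a median log2 change of -0.08. Over all genes 17.8% fell and 14.7% rose, and 29.1% and 23.7% of those at or above the median brightness. POMP, the chaperone of core maturation, fell from 4508, 4504 and 4369 to 3325, 3234 and 3199 (log2 change -0.45, SE 0.0330, adjusted p = 8.48e-06). This fall stands beside rises of 7 of the 13 core genes that it helps to assemble. The cap-bound ligase UBE3C fell by 0.42 and the proteasome-binding ZFAND5 by 0.36, while the cap-bound thioredoxin TXNL1 rose by 0.29. Dropping shared probe sets took ZFAND5 above the threshold (-0.23, adjusted p = 0.388). ADRM1, the cap's second ubiquitin receptor, rose from 2039, 1939 and 1879 to 2325, 2367 and 2445 (log2 change 0.28, adjusted p = 0.000659), and PAAF1, a chaperone of the base, fell by 0.61 (adjusted p = 0.000340). ADRM1 and PAAF1 were picked out after their values were seen.

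Of 5 measured genes around NFE2L1, 1 fell and 0 rose, with 2 and 0 at an unadjusted p under 0.05. The fall was that of NGLY1, the deglycosylase that activates NFE2L1 (-0.24, adjusted p = 0.0112), which was -0.06 with shared probe sets left out. NFE2L1 itself had a change of -0.12 (adjusted p = 0.0644). Among ubiquitin genes and E1 enzymes the E1 UBA6 rose by 0.46 (adjusted p = 0.00298), but read -0.13 once shared probe sets were dropped. The ubiquitin gene UBB fell by 0.13 (adjusted p = 0.00901), and its adjusted p was 0.0856 with arrays centred on their median and 0.147 without the variance trend. The COP9 signalosome, a complex built like the 19S lid, had 2 of 9 genes higher and 3 lower. COPS7A fell by 0.84 and COPS6 by 0.61, and COPS2 rose by 0.50, but had a change of -0.13 with shared probe sets left out. COPS4 rose by 0.26. In the list of peptide loading genes and interferon-pathway inducers of the immunosubunits, 1 of 8 rose and 2 fell: IRF9 rose by 0.54, and TAPBP fell by 0.59 and IRF1 by 0.32. IRF1 was above 0.05 without control array 2 (adjusted p = 0.0902), NFX1-91 shRNA array 1 (0.0664) or array 2 (0.0878). The peptide transporter genes TAP1 (0.01) and TAP2 (0.12) did not pass. The shares called were 20% for the NFE2L1 list, 66.7% for the ubiquitin list, 55.6% for COP9 and 37.5% for the peptide loading list. Over all genes 32.5% were called, and 52.8% of those at or above the median brightness. Whether any list differs from other genes was not tested.

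The upstream 250 bases were searched on both strands for 34 of the 39 genes with an entry in the promoter table. TGANNNNGC was found in 19 of the 34 (55.9%) and in 35.4% of all 27195 promoters. It was present in 5 of 14 genes that rose, 2 of 3 that fell and 12 of 17 that did not pass. CCAAT was found in 14 of 34 (41.2%, against 32.9% of all promoters), the E-box CACGTG in 3 (8.82% against 6.34%) and the interferon-stimulated response element core in 3 (8.82% against 3.06%), which were PSMA4, PSMB4 and PSMB10. Among the 9547 tested genes with a promoter entry, 35.5% held TGANNNNGC, 35% CCAAT, 8.04% CACGTG and 2.47% the interferon-stimulated response element core. All of these are letter matches and not measured sites.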

How the data were processed

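The authors hybridised biotin-labelled RNA to Affymetrix arrays, per the labels' protocols. The deposited table holds linear intensity values for 22215 probe sets, and each column sums to 1. The probe summary and scaling are not stated in those protocols. Each array was multiplied to a mean of 500, and log2(signal + 16) was taken. Fold changes are on that scale, which understates changes of dim genes.

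Probe sets were named from the platform annotation (19064 with 1 gene, 1043 with several, 2108 with none listed; 19052 matched RefSeq genes on GRCh38.p14 by identifier). The brightest single-gene probe set stood for a gene, which left 11963 genes. Of 48 genes in the role lists 9 had no probe set of their own: PSMA6, PSMA8, PSMB11, PSMC5, PSMD7, PSMD13, PSME2, PSMG3 and PSMG4. No filter on low values was used; 40 of the 41 members had signals above 16 on all arrays, the exception being PSMB8. Of the 39 proteasome genes 17 were read by shared (_s_at or _x_at) probe sets, and 12 of these have no other kind.

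The comparison was an unpaired two-sided limma fit (limma 3.58.1, R 4.3.3, eBayes trend on) with Benjamini-Hochberg adjustment over all genes or, for single probe sets, over all probe sets. The fit was tested on simulated data. Members and lists were chosen with earlier results of these data known. Array values are given for the 6 largest rises and 8 largest falls among members that passed (3 fell), PSMB5 to PSMB10, the PSME genes and PSMF1, and up to 4 genes with the smallest adjusted p are named per other list. 6 arrays limit the precision. The alternatives changed the scaling (quantile or median), the dim-gene filter (40th percentile), the offset (1, 64 or none), the variance model (without trend, robust, weighted arrays, replicate block), the probe set (mean, or none that is shared), the arrays (each left out) and the call (0.01, or 1.5-fold). Promoter sequence is from RefSeq on GRCh38.p14. Plots used matplotlib 3.10.9 under Python 3.11.15.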

Additional observations from a re-analysis of the deposited data

Results flagged for a closer look

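Probe sets annotated to several genes were not used for any gene above, and 4 of the 5 that name a proteasome gene differed between the groups. Among single genes, 32.5% of all tested and 52.8% of those at or above the median brightness were called. The share called over all probe sets is not given here. Both probe sets shared by PSMA6, an alpha ring subunit, and PRORP were higher in NFX1-91 shRNA arrays, with log2 changes of 0.42 (3655, 3523 and 3329 against 4784, 4581 and 4701, limma adjusted p over probe sets 0.000135) and 0.22 (limma adjusted p 0.0309). Both probe sets shared by PSMA2 and C7orf25 were lower, with changes of -0.66 (limma adjusted p 0.00281) and -0.71 (limma adjusted p 0.000665). Their mean signals went from 148 to 87.6 and from 228 to 133. The brightest probe set of PSMA2 alone, at means of 4178 and 4527, rose by 0.12. The fifth, shared by PSME2 and MIR7703, had a change of -0.09 (limma adjusted p 0.189). Which gene each signal comes from was not tested.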

How the results depend on the processing

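Of the 39 proteasome genes, 18 rose and 3 fell as reported. Of all genes 1760 rose and 2130 fell. Without a variance trend 10 proteasome genes rose and 1 fell (1471 and 1877 of all genes). At an adjusted p under 0.01 the counts were 11 and 1 (1136 and 1539 of all genes). With at least 1.5-fold they were 1 and 0 (364 and 690 of all genes). The 0.01 and 1.5-fold settings are stricter by construction, and the cause of the change without the trend was not tested. Leaving out each array gave 12 to 22 proteasome genes higher and 1 to 3 lower. Over all genes these fits gave 1264 to 1846 higher and 1649 to 2081 lower. With shared probe sets left out PSMA2 read -0.061, PSMB1 -0.16, COPS2 -0.13 and UBA6 -0.13, each from another probe set, and the cause was not tested. All other settings kept both proteasome counts within 1.5 times. Single proteasome genes gave 701 values over 18 settings without a stricter threshold. Of these, 632 kept the call, 54 were no longer called, 13 were newly called and 2 reversed. The reversals were of the called genes PSMA2 and PSMB1. Genes that passed in neither fit counted as kept even where they changed side, as PSMD9 did with averaged probe sets (-0.02 to 0.22). Same-numbered arrays did not deviate together (correlations -0.030, 0.079 and -0.023; 2 of 6 arrays correlated best with their own number). With the replicate block 19 proteasome genes rose and 2 fell (1628 and 1970 of all genes), and PSME1 had an adjusted p = 0.0526. Dim signals limit PSMB8 and PSMB9.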
